A study of Mus musculus with 4 samples.

Results

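Conventional dendritic cells type 2 (cDC2) of the mouse lung were taken from 4 single-cell libraries of sorted CD45.2+ immune cells. They were selected on measured values: barcodes with more than 200 genes and under 15% mitochondrial UMIs (unique molecular identifiers, each counting 1 captured transcript), with at least 10 UMIs of H2-Ab1, at least 2 of the 5 genes Cd209a, Clec10a, Mgl2, Cd209d and Flt3 seen, and no UMI of Xcr1, Clec9a, Fscn1, Cd3e or Cd79a. Under 5 UMIs in the sum of C1qa, C1qb and C1qc and fewer than 2 of the 4 alveolar macrophage genes Marco, Car4, Krt79 and Pparg were further required. The rule found 178 cDC2 among 27544 kept barcodes, of 28805 in the files. The genes in the rule are therefore described below without any test, and they support nothing about these cells.

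The study compared C57BL/6 mice with a deletion of Ift20, which encodes a protein of intraflagellar transport, with mice that kept the gene. DPBS-WT and Papain-WT came from Ift20 f/f mice, and DPBS-KO and Papain-KO from Ift20 f/f CD4 cre mice, in which the Cd4 promoter drives Cre, so that the deletion is aimed at T cells and not at dendritic cells. Papain, a protease allergen, was given intranasally at 25 µg on 3 days, again on day 14, and lungs were harvested on day 15. DPBS, the buffer, was the control. All 4 groups carry the floxed Ift20 allele, and cells were sorted as 7-AAD-negative and CD45.2-positive before 10x Genomics 3′ v3 libraries were made. Each group is 1 library and the number of mice behind it is not given in the sources used here, so no difference between groups has a replicate check. Every interval below is a 95% interval that covers counting error only. Where 4 values follow each other without names, the DPBS pair comes first and the papain pair second, with WT before KO in each pair.

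cDC2 sample antigen in the airway wall, carry it to the draining lymph node and present it on MHC class II to CD4 T cells. They depend on the growth factor receptor Flt3 and on Irf4, and in type 2 allergic settings they are known for the C-type lectins Cd209a, Mgl2 and Clec10a and for the chemokines Ccl17 and Ccl22, the ligands of CCR4. The related cDC1, which express Xcr1 and Clec9a, cross-present antigen to CD8 T cells and depend on Irf8.

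The cDC2 were deeply read. Their median depth was 15584 UMIs in DPBS-WT against 14714 in DPBS-KO, and 15956 in Papain-WT against 15655 in Papain-KO, and the summed counts behind the expression levels were 497939, 572119, 1204593 and 519381 UMIs in the same order. Barcode sequences were shared by 7 to 16 cells in each pair of libraries, and none of the shared barcodes was a cDC2. Ift20 was at 52.2, 28.0, 72.2 and 59.7 CPM (counts per 1e+06 UMIs) in cDC2 of the 4 libraries, and reads from the 3′ end do not check the deletion.

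cDC2 made up the largest share of the kept barcodes in Papain-WT and the smallest in DPBS-WT. There were 34 cDC2 of 8144 barcodes in DPBS-WT (0.417%, exact binomial interval 0.289 to 0.583), 39 of 5704 in DPBS-KO (0.684%, 0.487 to 0.934), 76 of 7994 in Papain-WT (0.951%, 0.750 to 1.19) and 29 of 5702 in Papain-KO (0.509%, 0.341 to 0.730). The interval of Papain-WT lay above those of DPBS-WT and Papain-KO and overlapped that of DPBS-KO. In WT the share was 2.28-fold higher after papain than after DPBS, a log2 ratio of 1.19 (0.61 to 1.77). In KO it was lower after papain, with a log2 ratio of -0.43 whose interval, -1.12 to 0.26, held 0. KO over WT gave -0.90 (-1.52 to -0.29) after papain and 0.71 (0.05 to 1.37) after DPBS.

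**Figure D1:**
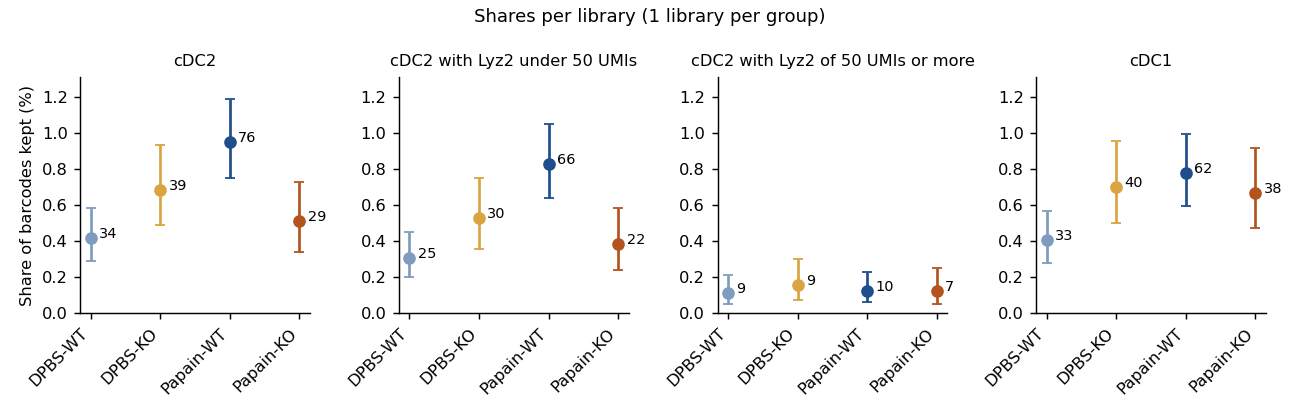
Share of the kept barcodes, in percent, in each of the 4 libraries for cDC2, for cDC2 with Lyz2 under or at least 50 UMIs, and for cDC1. Points are shares with the number of cells beside them, bars are exact binomial 95% intervals, and Papain-WT is the highest for cDC2 and for cDC2 with Lyz2 under 50 UMIs, while cDC2 with at least 50 UMIs of Lyz2 hold between 0.111% and 0.158% in every library.

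The shares of other myeloid cells are given beside this. The log2 papain response of the cDC2 share in KO minus that in WT was -1.61 (-2.52 to -0.71), beside -1.01 (-1.89 to -0.13) for cDC1 and -1.04 (-1.58 to -0.51) for classical monocytes, each picked by its own marker genes. For mature dendritic cells, of which there were 5, 4, 21 and 3, it was -2.51 (-5.09 to 0.06), for interstitial macrophages -0.60 (-1.40 to 0.21) and for B cells 0.42 (0.30 to 0.54). Unlike cDC2, interstitial macrophages were also a larger share after papain in KO, with a log2 ratio of 0.68 (0.06 to 1.31). cDC2 held 47.2%, 47.0%, 47.8% and 41.4% of all cDC2, cDC1 and mature dendritic cells of a library. All of these are shares of the same barcodes, so more cells of a type and fewer of the others cannot be told apart.

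The members carried the genes of the rule to different degrees. Cd209a was the most often seen lectin, in 28 of 34 cells of DPBS-WT against 31 of 39 of DPBS-KO, and in 64 of 76 cells of Papain-WT against 25 of 29 of Papain-KO, at 611, 951, 726 and 653 CPM. Mgl2 stood at 801, 1124, 1252 and 853 CPM and Clec10a at 199, 215, 266 and 270 CPM. These 2 genes are close relatives on chromosome 11 (GRCm38, Mgl2 at chr11:70130329-70137550 and Clec10a at chr11:70156197-70170834), and reads could be split between them. Flt3 was at 129, 119, 145 and 86.6 CPM, and H2-Ab1 had a median of 161, 225, 211 and 214 UMIs per cell.

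Cd209d stood apart from the other rule genes by its pattern over libraries. It had 12 UMIs in DPBS-WT against 13 in DPBS-KO, and 147 in Papain-WT against 16 in Papain-KO, or 24.1, 22.7, 122 and 30.8 CPM, and was seen in 6, 6, 31 and 4 cells. Cd209e, its neighbour on chromosome 8 and outside the rule, had 0, 1, 60 and 0 UMIs, all but 1 of them in 16 cells of Papain-WT. Against the floor of 3 UMIs per library that a count of 0 allows, Cd209e was at least 8.27-fold higher in Papain-WT than in DPBS-WT and at least 8.62-fold lower in Papain-KO than in Papain-WT. Cd209 genes are similar in sequence, so their reads may be split between copies.

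B cells of the same libraries, which should lack these lectins, give the level of free RNA. Cd209a was seen in 0.572%, 0.555%, 0.648% and 0.852% of B cells and Mgl2 in 0.286%, 0.397%, 0.748% and 0.487%, at a median depth of 4024 to 4984 UMIs. In cDC2 thinned to 3000 UMIs per cell, with 2, 2, 1 and 0 shallower cells left out, Cd209a was still seen in 16 of 32 cells of DPBS-WT and in 64.9%, 66.7% and 62.1% of the other libraries, and Mgl2 in 16 of 32 cells and in 70.3%, 73.3% and 55.2%. Since both genes are in the rule, members had to show them more often than B cells, and the comparison is a description only.

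**Figure D2:**
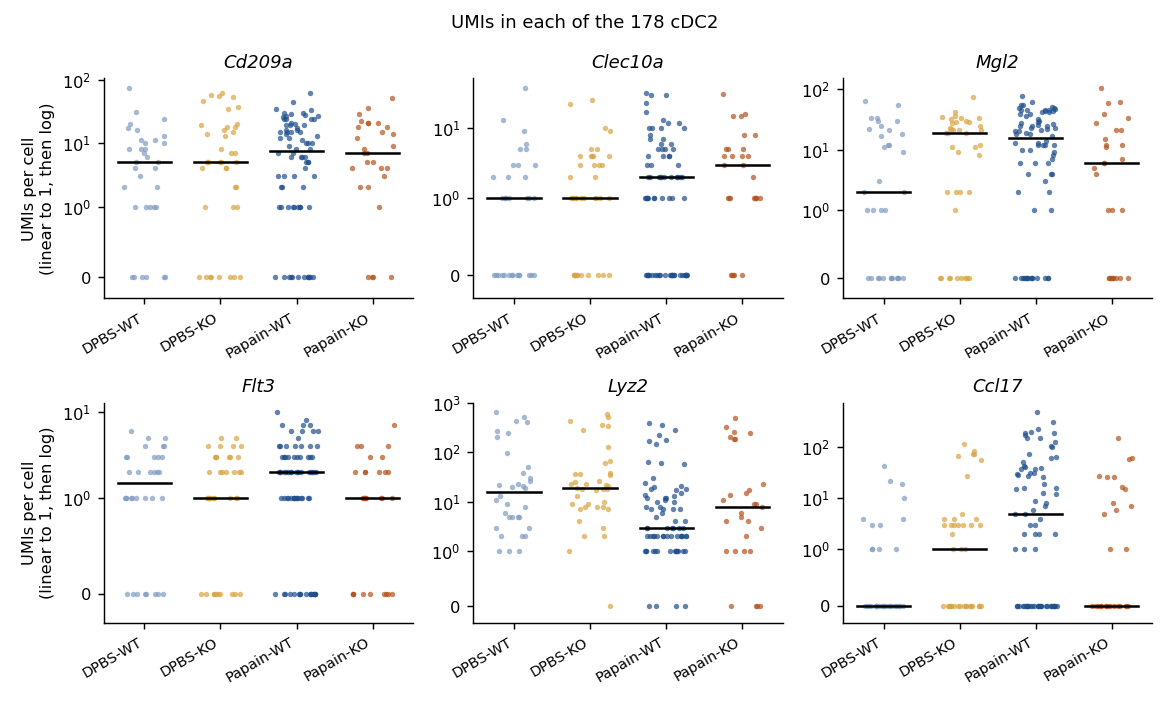
UMIs of the marker genes Cd209a, Clec10a, Mgl2 and Flt3 and of Lyz2 and Ccl17 in each of the 178 cDC2, by library, on an axis that is linear to 1 and logarithmic above. Each point is a cell and each line a median, and the median of Ccl17 is 0 in DPBS-WT and Papain-KO, 1 in DPBS-KO and 5 in Papain-WT.

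Few cells lay at the edge of the rule for H2-Ab1 and many at the edge of the rule for lectins. A single cDC2, in DPBS-WT, had 10 to 14 UMIs of H2-Ab1, and 0, 0, 2 and 2 barcodes met everything else with 5 to 9. Exactly 2 of the 5 rule genes were seen in 15, 9, 14 and 7 members, and 29, 28, 61 and 27 barcodes met all else with just 1 rule gene. The limit on C1q removed 7, 6, 24 and 6 barcodes that met all else.

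Outside the rule, cDC2 were compared with cDC1, mature dendritic cells, interstitial macrophages and classical monocytes. Only genes whose log2 ratio of CPM, as a mean over the 4 other cell types, was above 0 in all 4 libraries were ranked. The 5 of these with the highest mean log2 ratio were H2-Eb1 and H2-DMb2 (each 2.55), H2-Oa (2.27), H2-Aa (2.26) and Nccrp1 (2.22). H2-Eb1 and H2-Aa are chains of MHC class II molecules, and H2-DMb2 and H2-Oa encode parts of the molecules that edit the peptides they hold. H2-Eb1 was at 10383, 13553, 11013 and 11498 CPM. Classical monocytes were picked with under 10 UMIs of H2-Ab1, so the selection itself raised the means of MHC class II genes. Pooled over libraries, H2-Aa was at 13621 CPM in cDC2 and 9754 CPM in cDC1. It was at 8936 CPM in mature dendritic cells, 7605 CPM in interstitial macrophages and 78.0 CPM in classical monocytes. Nccrp1 was at 38.2, 97.9, 78.0 and 104 CPM in cDC2, and pooled over libraries at 33.9 CPM in cDC1 and 1.71 CPM in interstitial macrophages. Il1rl1, the receptor of the alarmin IL-33, was at 48.2, 76.9, 30.7 and 34.7 CPM in cDC2 and at no more than 13.1 CPM pooled in any of the other 4 myeloid types. This is a description, because the cells were chosen on transcripts that go with these genes.

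The rule also admitted cells with many UMIs of monocyte and macrophage genes. Lyz2, the lysozyme gene of monocytes and macrophages, reached at least 50 UMIs in 9 of 34 cDC2 of DPBS-WT against 9 of 39 of DPBS-KO, and in 10 of 76 of Papain-WT against 7 of 29 of Papain-KO. These cells held most of the Apoe, 160 of 164, 170 of 178, 42 of 50 and 124 of 133 UMIs. Apoe was at 1102, 1513, 254 and 921 CPM in them against at most 40.8 CPM in any library's cDC2 with less Lyz2. Epcam was not seen in them, and H2-Eb1 was at 5956 to 9616 CPM.

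Cells high and low in Lyz2 were counted apart. Cells with at least 50 UMIs of Lyz2 were 0.111%, 0.158%, 0.125% and 0.123% of the kept barcodes, and the log2 ratio of papain over DPBS in WT was 0.18 (-1.12 to 1.48). cDC2 with less Lyz2 were 25, 30, 66 and 22 cells, or 0.307%, 0.526%, 0.826% and 0.386%. Their log2 ratio of papain over DPBS was 1.43 (0.76 to 2.09) in WT and -0.45 (-1.24 to 0.34) in KO, and KO over WT after papain was -1.10 (-1.79 to -0.40).

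Markers of other cell types differed in how widely they were spread. The 8 cDC1 markers summed to 697, 444, 951 and 543 CPM in cDC2, with Xcr1 and Clec9a at 0 by the rule. The 8 mature dendritic cell markers, which include Ccl22, Socs2 and Il4i1, summed to 263, 433, 755 and 462 CPM. Both sums were highest in Papain-WT. The 8 classical monocyte markers, led by Plac8, were seen in 84.6% to 97.1% of cDC2. They summed to 2279, 1024, 1064 and 1379 CPM, highest in DPBS-WT, where the 4 marker genes of cDC2 summed to 1739 CPM. In B cells the same 8 markers summed to 2430, 1536, 4007 and 1771 CPM, more than in cDC2 of each library. The 8 nonclassical monocyte markers, led by Nr4a1 or Ear2, summed to 786 to 944 CPM in cDC2. The 7 neutrophil markers summed to 22.1, 26.2, 42.3 and 851 CPM, and 216 of the 224 UMIs of S100a9 and 191 of the 196 of S100a8 in Papain-KO came from 1 cell. Plasmacytoid dendritic cell markers summed to 693, 185, 639 and 599 CPM, with Siglech, Ccr9, Klk1, Cox6a2 and Pacsin1 at 0 in DPBS-KO, and at least 10 UMIs of Siglech were found in 1, 0, 2 and 1 cells. T cell markers summed to 7.70 to 29.7 CPM. Their part in the differences below was not tested beyond the values given without those cells.

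Papain in WT was the comparison with the most genes past 2-fold. Of 4073 genes with at least 50 UMIs over both libraries, in at least 10 cells, 154 were at least 2-fold higher in Papain-WT cDC2 than in DPBS-WT cDC2 (3.78%) and 81 at least 2-fold lower (1.99%), and the median log2 ratio of all genes was 0.02. Papain-WT held 1204593 cDC2 UMIs against 497939 in DPBS-WT, so genes high in Papain-WT met the minimum of 50 UMIs at a lower CPM. The counts of higher and lower genes are therefore not on equal terms. Over the 2752 genes tested in both genotypes, WT had 68 higher (2.47%) and 51 lower (1.85%). The 154 higher genes included the CCR4 ligands Ccl17 and Ccl22, the eosinophil attractant Ccl24, the adhesion molecule Cdh1 and the costimulator Cd40. The lower ones included the chemokine Ccl4, Tnf, Egr1 and several heat shock genes.

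Ccl17 was the most abundant of the named higher genes. It had 113 UMIs in DPBS-WT against 541 in DPBS-KO, and 3208 in Papain-WT against 412 in Papain-KO, that is 227, 946, 2663 and 793 CPM. Papain-WT was the highest and DPBS-WT the lowest, and the counting intervals of those 2 libraries overlapped no other. The log2 ratio of papain over DPBS was 3.55 (3.28 to 3.84) in WT and -0.25 (-0.44 to -0.07) in KO, a difference of -3.81 (-4.13 to -3.48). KO over WT was -1.75 (-1.90 to -1.60) after papain and 2.06 (1.76 to 2.36) after DPBS, so the KO and WT cells stood in opposite orders under the 2 treatments. These 4 ratios share libraries pairwise and are not independent of each other.

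The high level of Ccl17 was spread over more cells in Papain-WT than elsewhere. It was seen in 12 of 34, 22 of 39, 49 of 76 and 14 of 29 cells, with at most 44, 115, 487 and 150 UMIs in a cell, and the highest cell held 38.9%, 21.3%, 15.2% and 36.4% of its library's cDC2 UMIs. After thinning to 3000 UMIs per cell it was seen in 15.6%, 27.0%, 50.7% and 31.0% of cDC2, against 0.476%, 0.714%, 2.44% and 0.912% of B cells without thinning. When the selection itself was made on barcodes thinned to 3000 UMIs, the log2 ratio for papain in WT was 2.36 and that for KO over WT after DPBS 0.83, under 2-fold.

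The gene lies at chr8:94810453-94812036 on the + strand (GRCm38, GENCODE annotation), near Ccl22 at chr8:94745590-94751699. The promoter window of Ccl17 is shown because, of the genes named as higher with papain in WT, it was the only 1 of 7 with a window in RefSeq (GRCm38.p6, 250 bases before to 50 after the gene start) that held TTC and GAA with 4 bases between them, the spacing preferred by STAT6, the factor downstream of IL-4 and IL-13. It spans chr8:94810203-94810502 on the + strand, and the capitals mark the match, which starts 154 bases before the gene start.
Ccl17 promoter: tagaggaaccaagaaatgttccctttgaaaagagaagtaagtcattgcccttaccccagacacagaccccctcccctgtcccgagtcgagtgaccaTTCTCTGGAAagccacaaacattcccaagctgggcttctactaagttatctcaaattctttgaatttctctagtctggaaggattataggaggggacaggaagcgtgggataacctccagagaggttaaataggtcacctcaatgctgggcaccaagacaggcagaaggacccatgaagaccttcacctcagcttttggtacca

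Such letters are common and a match is no binding site. This spacing of 4 bases occurs on either strand in 6.95% of 32851 RefSeq windows of 300 bases, TTCNNNGAA, the general STAT spacing, in 8.30%, and a pair of GAAA with 2 bases between them, an interferon response motif, in 3.44%. The Ccl17 window also holds TTCNNNGAA, starting 99 bases before the gene start. Of 7 genes named as lower with papain in WT that had a window, some with more than 1, none held the spacing of 4. Among these 7, Sirpb1c alone held TTCNNNGAA. Counted by gene, 8.01% of 27025 genes held the spacing of 4 in a window and 9.55% held TTCNNNGAA.

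Ccl24, which attracts eosinophils through CCR3, was found almost only in Papain-WT cDC2. It had 0, 0, 702 and 2 UMIs, in 0, 0, 12 and 1 cells, and 266 of the 702 UMIs lay in 1 cell, which was high in Lyz2. Against the floor of 3 UMIs the level was at least 96.7-fold higher in Papain-WT than in DPBS-WT, and the log2 ratio of KO over WT after papain was -7.24 (-10.29 to -5.38). Interstitial macrophages also held it, at 17.2, 4.28, 604 and 101 CPM, and B cells were at 15.6 CPM in Papain-WT, beside 583 CPM in cDC2.

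A group of surface and adhesion genes was high in Papain-WT and low in the other 3 libraries. Cdh1, which encodes E-cadherin, had 1, 8, 129 and 8 UMIs, with a log2 ratio of papain over DPBS in WT of 5.74 (3.23 to 11.05). Plet1, a surface protein of some mucosal dendritic cells, had 13, 4, 313 and 4 UMIs (3.32, 2.52 to 4.24). Aqp3, a channel for water and glycerol, had 3, 5, 132 and 3 UMIs (4.18, 2.61 to 6.48). In each of these genes the lowest end of the Papain-WT interval in CPM lay above the highest end of the other libraries, and KO over WT after papain was -2.80 (-4.04 to -1.78) for Cdh1, -5.08 (-6.96 to -3.71) for Plet1 and -4.25 (-6.54 to -2.67) for Aqp3. The epithelial adhesion molecule Epcam, itself a surface marker of some dendritic cells, was at 56.2, 62.9, 162 and 73.2 CPM. Lung epithelium markers summed to 10.8 CPM in Papain-WT cDC2 and to 15.4 to 42.2 CPM in the other libraries.

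Il4i1, an enzyme that breaks down amino acids and is induced by IL-4, was at 26.1, 35.0, 231 and 11.6 CPM. Papain over DPBS was 3.14 (2.35 to 4.07) on the log2 scale in WT and -1.60 (-3.20 to -0.23) in KO, where only 20 and 6 UMIs stand behind it, under the minimum of 50. Socs2, an inhibitor of cytokine signalling, had 2, 4, 53 and 4 UMIs, and Tcea3, a transcription elongation factor, had 1, 0, 58 and 4. All 3 were highest in Papain-WT.

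For a pair of the named genes the DPBS-KO level was already well above DPBS-WT. Ramp3, a partner of the receptors for adrenomedullin and related peptides, was at 12.0, 78.7, 178 and 55.8 CPM. Sdc4, a heparan sulfate proteoglycan of the cell surface, was at 44.2, 156, 396 and 169 CPM. As for Ccl17, papain over DPBS was high in WT, 3.88 (2.74 to 5.34) for Ramp3 and 3.16 (2.55 to 3.85) for Sdc4, while the KO intervals, -1.22 to 0.21 and -0.32 to 0.56, held 0.

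**Figure D3:**
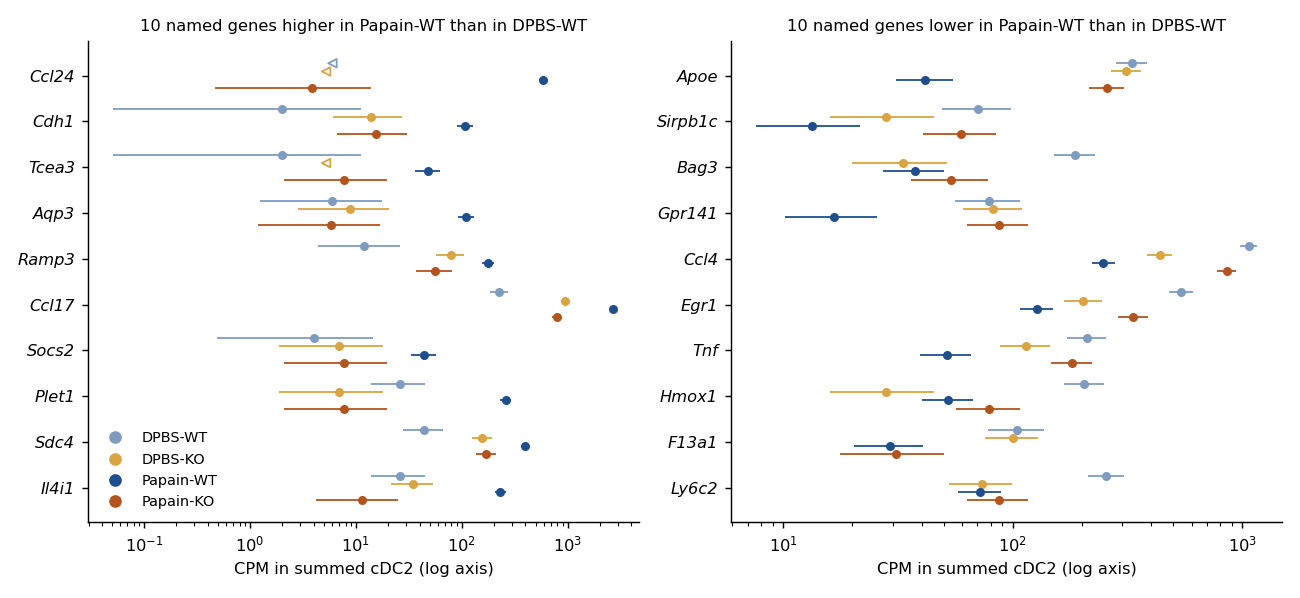
CPM in summed cDC2 of each library, on log axes, for the 10 named genes higher (left) and the 10 lower (right) in Papain-WT than in DPBS-WT. Points are levels, bars are 95% counting intervals and open triangles mark the floor of 3 UMIs where the count was 0, and Papain-WT is the highest library for all 10 genes on the left.

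Ccl17 and its companions marked a subset of the Papain-WT cells. Among the 66 Papain-WT cDC2 with under 50 UMIs of Lyz2, 38 had at least 5 UMIs of Ccl17 and 28 had fewer. In the other 3 libraries cells with little Lyz2 and at least 5 UMIs of Ccl17 numbered 4, 7 and 11. As a share of all kept barcodes, cDC2 with at least 5 UMIs of Ccl17 were 0.0491% in DPBS-WT against 0.140% in DPBS-KO, and 0.488% in Papain-WT against 0.210% in Papain-KO, and on the log2 scale papain over DPBS was 3.31 (1.83 to 4.80) for WT cells and 0.59 (-0.70 to 1.88) for KO cells. The limits of 50 and 5 UMIs were chosen after the counts were seen, and the cells near them are visible in the plot of Lyz2 against Ccl17.

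**Figure D4:**
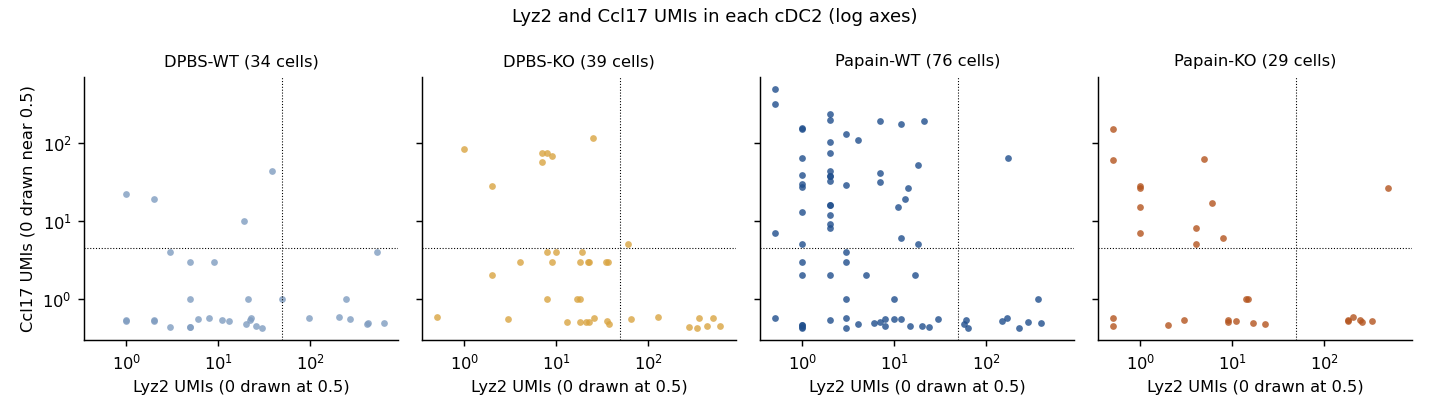
UMIs of Lyz2 (x axis) and Ccl17 (y axis) in each cDC2 of the 4 libraries, on log axes with 0 drawn at or near 0.5. Dotted lines show the limits of 50 UMIs of Lyz2 and 5 UMIs of Ccl17, and the cells above 5 UMIs of Ccl17 lie mostly left of the Lyz2 line, 38 of 39 in Papain-WT.

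Within Papain-WT the Ccl17-positive cells with little Lyz2 differed in surface genes from the 28 others. Ccl22 was seen in 25 of 38 of them against 6 of 28, at 555 and 65.3 CPM. Itgae, which encodes the integrin CD103, was seen in 17 against 1, and Epcam in 30 against 10. The Plet1 level was 477 CPM in them and 46.6 CPM in the others, and Il4i1 was at 351 and 133 CPM. Cd209a, at 757 and 835 CPM, differed little, and Flt3 was lower in the Ccl17-positive cells, at 116 against 217 CPM.

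Few such cells were found in the other libraries. Of the 4 in DPBS-WT, 2 held Itgae, 2 Epcam, 3 Ccl22, 3 Plet1 and 1 Il4i1. In the 11 Ccl17-positive Papain-KO cells with little Lyz2, Plet1 was seen in 1, Itgae in 2 and Il4i1 in 2, while Ccl22 was seen in 8 and Epcam in 9. In the 7 such cells of DPBS-KO, Ccl17 was at 4562 CPM, near the 5119 CPM of Papain-WT, Ccl22 was seen in 6, Plet1 in 1 and Itgae in 0, so that high Ccl17 occurred without Itgae. With so few cells the shares cannot be ranked between libraries, and a gene that was not seen in 7 cells could still be present in a large share of cells of that kind. No test was made, because cells of 1 library are not replicates and the split was made on measured values.

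Other dendritic cells and macrophages held Ccl17 too. cDC1 were at 250, 783, 523 and 952 CPM, mature dendritic cells at 1979, 1416, 4228 and 475 CPM, and interstitial macrophages at 532, 507, 1112 and 223 CPM. In cDC1 the highest library was Papain-KO, unlike in cDC2. Plet1 was at 541, 543, 225 and 210 CPM in cDC1, whose highest libraries were those given DPBS, and at 63.3 to 172 CPM in B cells, and Aqp3 was at no more than 7 CPM in any other cell type examined.

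Among 17 type 2 response genes with enough counts, 6 were at least 2-fold higher with papain in WT (Ccl17, Ccl22, Ccl24, Irf4, Socs2 and Cish) and 1 was lower (Socs3), beside 3.78% and 1.99% of all genes, with a median log2 ratio of 0.46 beside 0.02 over all genes. Irf4, the transcription factor on which cDC2 depend, was at 30.1, 48.9, 78.0 and 52.0 CPM (papain over DPBS in WT 1.37, 0.58 to 2.27). Cish, a target of STAT5, was at 40.2, 29.7, 101 and 38.5 CPM. In KO, 0 of 12 such genes were 2-fold higher with papain and 1, Il1rl1, was lower, with a median of -0.05. Ccl24, Socs2 and Cish had too few UMIs in the KO libraries to be tested, so the WT and KO counts cover different genes. Ccl17, Ccl22 and Irf4 were tested in both genotypes and did not pass 2-fold in KO. Members of this list were known from earlier results of these data, so its direction is no independent support.

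Several costimulators were also highest in Papain-WT. Of 9 tested, 3 were at least 2-fold higher with papain in WT (Cd80, Cd40 and Cd274), none was lower, and the median was 0.64, beside 3.78% higher and 1.99% lower of all genes. Cd40, which receives help from T cells, was at 36.1, 90.9, 174 and 52.0 CPM, and papain over DPBS was 2.26 (1.57 to 3.05) in WT and -0.81 (-1.53 to -0.11) in KO. Cd274, the ligand of PD-1, was at 30.1, 33.2, 95.5 and 15.4 CPM. Pdcd1lg2, the other ligand of PD-1, had 2, 1, 43 and 0 UMIs. Cd86 was even across libraries, at 153, 187, 189 and 195 CPM, and its 4 log2 ratios had intervals that held 0.

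None of the 11 tested genes of MHC class II presentation passed 2-fold in any of the 4 comparisons, which is near the 0.83% to 3.78% of all genes for so short a list, and the medians were 0.08 and -0.23 for papain in WT and KO and -0.12 and 0.13 for KO over WT after papain and DPBS. Of 8 cytokine genes tested for papain in WT, Il1rn, Vegfa and Areg were higher and Tnf lower, beside 3.78% and 1.99% of all genes. Il1rn, the antagonist of the IL-1 receptor, was at 26.1, 47.2, 98.0 and 25.0 CPM, and its log2 ratio of KO over WT after papain was -1.97 (-2.92 to -1.14).

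Among the 10 named genes lower with papain in WT were some of monocytes and macrophages. Apoe, F13a1 and Ly6c2 were at 329, 104 and 255 CPM in DPBS-WT and 41.5, 29.1 and 72.2 CPM in Papain-WT. Without the cells of at least 50 UMIs of Lyz2, their log2 ratios went from -2.99 to -0.56, from -1.85 to -0.14 and from -1.82 to 0.09. Without cells that held any Ly6c2, Apoe even turned to 2.28. Hpgd, which degrades prostaglandins, was lower with papain in both genotypes, at 120, 173, 37.4 and 65.5 CPM.

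Inflammatory and stress genes were also among the named lower genes, and without the cells high in Lyz2 their log2 ratios in WT were -2.28 for Ccl4, -2.21 for Tnf, -2.26 for Egr1, -2.45 for Hmox1 and -2.56 for Bag3. Ccl4, a chemokine for T cells and monocytes, was at 1066, 437, 247 and 855 CPM, and the intervals of the 4 libraries did not overlap. Papain over DPBS was -2.11 (-2.32 to -1.90) in WT and 0.97 (0.74 to 1.20) in KO. Tnf, at 211, 114, 51.5 and 181 CPM, and Egr1, at 540, 203, 127 and 335 CPM, had the same order of libraries. For Tnf in WT the log2 ratio of -2.03 was -0.33 when cells were selected after thinning. Hmox1 and Bag3 were highest in DPBS-WT, at 205 and 187 CPM, and lowest in DPBS-KO, at 28.0 and 33.2 CPM. Sirpb1c, which has close copies, was at 70.3, 28.0, 13.3 and 59.7 CPM, and Gpr141, an orphan receptor, at 78.3, 82.2, 16.6 and 86.6 CPM.

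The immediate early and stress genes were highest in DPBS-WT as a list. All 25 were tested, and with papain in WT 9 were at least 2-fold lower and 1, Nr4a3, higher, beside 1.99% and 3.78% of all genes, with a median log2 ratio of -0.82. In KO 4 were higher with papain (Jun, Egr2, Hspa1a and Hspa1b) and none lower, beside 1.52% and 0.83% of all genes, with a median of 0.36. KO over WT was -0.71 by its median after DPBS, with 9 lower beside 2.53% of all genes, and 0.49 after papain, with 2 higher beside 1.84%. Summed over the list, cDC2 were at 28134, 13447, 14856 and 19286 CPM, so DPBS-WT stood highest and DPBS-KO lowest.

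The same sums in other cells of these libraries are given beside this. cDC1 were at 19083, 12034, 16173 and 17085 CPM and interstitial macrophages at 23673, 18187, 15741 and 18931 CPM for the same list, each highest in DPBS-WT. Classical monocytes, at 15288, 14012, 14724 and 17272 CPM, were highest in Papain-KO. B cells were at 11345 to 11894 CPM in all 4, and their median over the list was 0.18 for papain in WT. Such genes also respond to how tissue is handled while cells are released, and the part of handling was not tested. Hspa1a, at 5553, 1061, 2113 and 3418 CPM, and Hspa1b, at 1673, 309, 992 and 1631 CPM, are near-identical neighbours on chromosome 17, so their reads may be split between them.

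**Figure D5:**
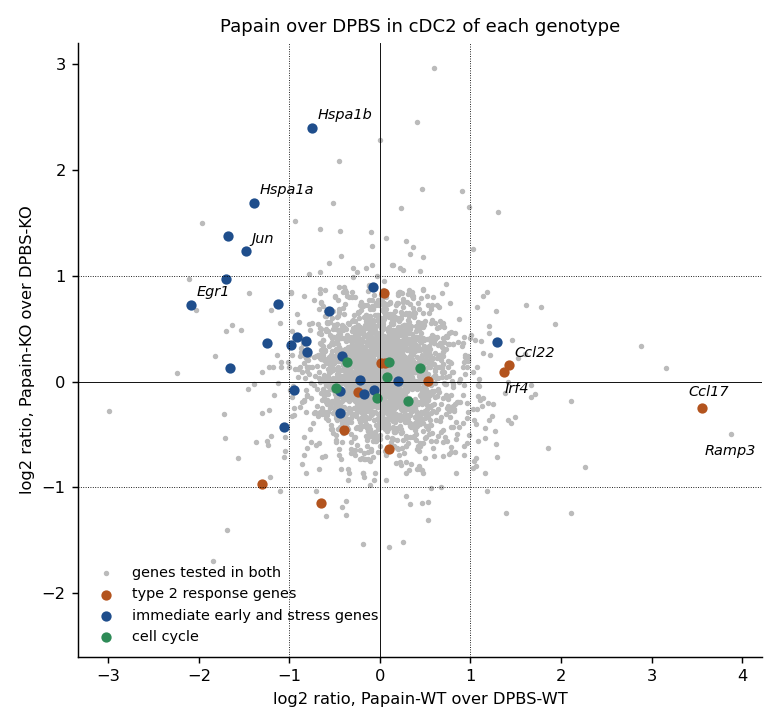
Log2 ratio of papain over DPBS in cDC2 of WT (x axis) and of KO (y axis) for genes tested in both comparisons, with 3 gene lists in colour and 2-fold marked by dotted lines. Ccl17 lies at 3.55 and -0.25, and most immediate early and stress genes lie left of 0, with Hspa1b at -0.75 and 2.40.

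In KO fewer genes had enough counts, and fewer were past 2-fold with papain. Of 2770 genes tested, 42 were higher (1.52%) and 23 lower (0.83%) in Papain-KO than in DPBS-KO, with a median log2 ratio of 0.06. With TMM scaling the counts were 33 and 29. Over the 2752 genes tested in both genotypes, 68 were higher in WT and 39 in KO, and the 2 shared ones were Cxcl10 and Ogt, which is 2.94% of the first and 5.13% of the second list, while 1.42% of the 2752 genes were higher in KO and 2.47% in WT. Of 51 and 21 lower ones, 3 were shared (Cx3cr1, F13a1 and Hpgd), which is 5.88% and 14.3% of the lists, while 0.763% of the 2752 genes were lower in KO and 1.85% in WT. Cxcl10, a chemokine for activated T cells that is induced by interferon, was at 58.2, 50.7, 144 and 154 CPM, with papain over DPBS on the log2 scale at 1.30 (0.73 to 1.92) for WT cells and at 1.60 (0.97 to 2.27) for KO cells.

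The named genes higher in KO with papain included Hspa1a and Hspa1b of the stress list, and S100a9, with 216 of its 224 UMIs in Papain-KO in 1 cell. Pltp, a phospholipid transfer protein, was at 137, 68.2, 206 and 530 CPM, a log2 ratio of 2.96 (2.47 to 3.48), in 16 of 39 cells of DPBS-KO and 11 of 29 of Papain-KO. Cxcl2, a neutrophil chemokine, was at 329, 152, 438 and 832 CPM. Its log2 ratio of 2.45 in KO was -0.19 when cells were selected after thinning, so its direction rested on which cells were counted, and 206 of its 432 UMIs in Papain-KO lay in 1 cell. Tcf4, a factor of plasmacytoid cells that cDC2 also express, was at 135, 50.7, 185 and 179 CPM. Clec4e, a lectin that senses mycobacterial glycolipid, was at 122 CPM in DPBS-KO and 32.7 CPM in Papain-KO, but without the cells high in Lyz2 its log2 ratio of -1.90 was 1.48.

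KO over WT after papain had more genes past 2-fold on the lower than on the higher side, and 4 of the lowest are described above. Of 4069 genes tested, 75 were higher in Papain-KO than in Papain-WT (1.84%) and 120 lower (2.95%), with a median of -0.03. Papain-WT held 1204593 cDC2 UMIs against 519381 in Papain-KO. Genes high in Papain-WT therefore met the minimum of UMIs over both libraries at a lower CPM. As for papain in WT, the higher and lower counts are not on equal terms. After Ccl24, Plet1, Il4i1 and Aqp3, the lowest named genes included Fabp5, a fatty acid binding protein, at 335 CPM in Papain-WT against 19.3 CPM in Papain-KO (-4.12, -5.19 to -3.23), and Slc7a11, a cystine transporter, at 63.9 and 7.70 CPM (-3.05, -4.96 to -1.64). Fabp5 was at 80.3 and 45.4 CPM in the DPBS libraries, so Papain-KO was the lowest of the 4. Serpina3g, a serine protease inhibitor, was at 75.5 and 3.85 CPM, and 54 of its 91 UMIs in Papain-WT lay in 1 cell.

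The higher genes of that comparison rested more on single cells. S100a8 and S100a9 had log2 ratios of 6.02 and 5.56, which were 0.74 and 0.77 without the 1 cell that held most of their counts. For Ccl5, 47 of 50 UMIs lay in 1 cell, and without it the ratio of 2.77 turned to -0.65. Apoe (2.63, 2.15 to 3.12), Gpr141 (2.38, 1.59 to 3.22), Tnf (1.81, 1.34 to 2.30) and Ccl4 (1.79, 1.57 to 2.01) were higher in Papain-KO, and they are genes that were lower with papain in WT, a comparison that uses the same Papain-WT library. Of the chemokine ligands, 12 were tested after papain: Ccl3, Ccl4 and Ccl5 were higher in KO, and Ccl17 and Ccl24 lower.

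After DPBS, KO cDC2 differed from WT cDC2 in stress genes on the lower side. Of 2731 genes tested, 61 were higher in DPBS-KO than in DPBS-WT (2.23%) and 69 lower (2.53%), and with TMM scaling these were 95 and 48, with the median of all genes going from -0.06 to 0.08. The 10 lowest named genes were Irf8, the stress gene Hmox1, and Hspb1, Dnajb1, Hsph1, Zfand2a, Bag3, Hspa1b, Hspa1a and Jun. Dnajb1, a co-chaperone, was at 1717 CPM in DPBS-WT and 196 CPM in DPBS-KO (-3.13, -3.43 to -2.85).

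Irf8, the transcription factor of cDC1 and plasmacytoid cells, was nearly absent from DPBS-KO cDC2. It had 116 UMIs in DPBS-WT against 7 in DPBS-KO, and 157 in Papain-WT against 40 in Papain-KO, or 233, 12.2, 130 and 77.0 CPM, in 14, 3, 22 and 10 cells. The interval of DPBS-KO overlapped no other, and KO over WT was -4.25 (-5.60 to -3.16) after DPBS and -0.76 (-1.30 to -0.25) after papain. Plasmacytoid markers were lowest in the same library, as given above, and Itgae, at 48.2, 5.24, 71.4 and 11.6 CPM, was lower in both KO libraries than in WT. This rested on few cells, since all Itgae UMIs of DPBS-WT lay in cells that held 11, 8 and 5. Those of Papain-KO lay in cells that held 5 and 1. Cd7, at 114, 8.74, 111 and 102 CPM, and Ly6d, at 102, 0, 37.4 and 75.1 CPM, were also lowest in DPBS-KO. The highest single cell held 25, 4, 32 and 30 UMIs of Cd7. The part of plasmacytoid cells, cDC1 or cells rich in Cd7 in the Irf8 level was not tested.

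The higher genes of DPBS-KO included several that were also higher with papain in WT: Ramp3 (2.71, 1.47 to 4.23), Ccl17 (2.06, 1.76 to 2.36) and Sdc4 (1.82, 1.13 to 2.56). Tnip3, a regulator of NF-kB signalling, was at 289, 788, 708 and 481 CPM (1.45, 1.17 to 1.73), and Clec4n, which encodes Dectin-2, at 44.2, 168, 103 and 200 CPM (1.93, 1.25 to 2.66). Since these ratios have DPBS-WT in common with papain in WT, a low value in that library enters both. When cells were selected after thinning, the ratio of Clec4n was 0.59, under 2-fold.

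Some genes of the cell cycle list had more UMIs per total in the KO libraries, much of it in few cells. The highest cells of DPBS-KO held 23, 20 and 16 UMIs of Top2a, and no other cell held more than 1. The highest cells of Papain-KO held 28 and 25, and no other cell held more than 2. Without its top cell, Ube2c went from 2.25 to 0.88 for KO over WT after papain. Mki67 was at 58.2, 147, 72.2 and 129 CPM, and was seen in 8 of 34, 9 of 39, 26 of 76 and 13 of 29 cells. For KO over WT after DPBS 3 of 7 tested genes (Mki67, Top2a and Hmgb2) were higher and none lower, beside 2.23% and 2.53% of all genes, and after papain 4 of 10 (Top2a, Stmn1, Tubb5 and Ube2c) were higher and none lower, beside 1.84% and 2.95%. Replication genes with too few UMIs for this count went the other way after DPBS, Mcm3 from 52.2 to 28.0 CPM and Mcm6 from 40.2 to 12.2 CPM. The medians of the tested genes were 0.96 and 0.91, against 0.03 and 0.04 for papain in WT and KO. When the barcodes with the highest doublet scores were left out, Top2a went from 1.58 to 0.49 for KO over WT after DPBS and Hist1h2ap from 2.63 to 0.70.

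The remaining lists are given by their counts for papain in WT, beside 3.78% higher and 1.99% lower of all genes. Of 14 lineage transcription factors tested for papain in WT, Irf4 alone passed 2-fold, and Zbtb46, a factor of conventional dendritic cells, was at 40.2, 64.7, 39.0 and 44.3 CPM. Of 14 cDC2 surface genes outside the rule, Epcam, Tnip3 and Cd209e were higher with papain in WT and Clec12a, Cx3cr1 and Ly6d lower. Of 11 chemokine and migration receptors, 1, Cx3cr1, was lower. Ccr2 was higher and Itgae lower in KO than in WT after papain. Of 10 interferon-stimulated genes, Cxcl10 was higher and Irf7 and Ifi209 lower with papain in WT, with a median of -0.47 that turned to 0.11 without the cells high in Lyz2.

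The same shares of all genes stand beside the lists of innate sensing and metabolism, and a count of 0 in lists this short lies near them. Of 5 pattern recognition genes and 6 Fc and complement receptors none passed in either direction, nor did any of 16 genes of lysosomes and proteases or 2 of intraflagellar transport. Of 7 C-type lectins outside the rule, Clec4n was higher and Clec12a lower. Of 7 lipid mediator genes Ptgs2, the inducible cyclooxygenase, was lower, and of 13 glycolysis genes Slc16a3, a lactate transporter, was lower. In KO with papain, Clec4e was the only member of these 7 lists past 2-fold.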

How the data were processed

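The deposited files hold raw counts of UMIs per gene and barcode for 4 libraries, made by the authors with Cell Ranger on mm10 per the submitters' processing notes; the matrix headers give software version 3.1.0, and the annotation is not given in the sources used here. All barcodes with more than 200 genes and under 15% mitochondrial UMIs were kept. No cluster or annotation file was used, and members were chosen by the stated rule. The members, the marker genes and the gene lists were chosen with earlier results of these data known.

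UMIs were summed over cDC2 per library and divided by their total (CPM). Log2 ratios carry exact conditional binomial intervals, ratios of shares the Katz log interval, and differences of log2 ratios Wald intervals, all at 95% and for counting error only. With 1 library per group no test was run. Genes needed at least 50 UMIs over both libraries and UMIs in at least 10 cells, and rule genes were left out; past 2-fold means an absolute log2 ratio of at least 1. A count of 0 was set to 3 UMIs for a bound. Named were the 10 highest and 10 lowest log2 ratios per comparison whose interval did not hold 0, without mitochondrial, ribosomal, predicted, receptor segment, haemoglobin and sex-linked marker genes, and list members. Ifi30, Cgas, Sting1, Clec7a, Clec6a and Aldoa were not found as symbols in the files.

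Doublets were not removed; leaving out the highest Scrublet scores, at 0.8% per 1000 barcodes, was an alternative, as were TMM factors from edgeR, thinning to 3000 UMIs before selection, and others. Leaving out cells with at least 50 UMIs of Lyz2, or with 10 of Siglech or S100a8, was chosen after seeing the data. The interval code was checked on simulated data. Statistics used scipy 1.17.1 and numpy 2.4.6, tables pandas 2.3.3, doublet scores scanpy 1.11.5 and plots matplotlib 3.10.9, in Python 3.11.15; R 4.3.3 ran edgeR 4.0.16.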

Additional observations from a re-analysis of the deposited data

Results flagged for a closer look

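For the cDC2 share, the log2 ratio of papain over DPBS went in opposite directions in WT and KO. The same held, with both counting intervals off 0, for 7 of the genes named for papain in WT. Genes whose KO interval held 0, such as Ramp3 at 3.88 in WT and -0.49 in KO, are not counted. With 1 library per group the difference between the genotypes was not tested. For the share of cDC2 the KO ratio was -0.43, with an interval of -1.12 to 0.26 that held 0. Cells with at least 5 UMIs of Ccl17 were 20.5% of cDC2 in DPBS-KO and 41.4% in Papain-KO, although the Ccl17 level was lower. With cells selected after thinning, the WT ratio went from -2.40 to -0.66 for Sirpb1c and from -2.03 to -0.33 for Tnf. The KO value minus the WT value was -1.61 for the share of cDC2. It was -3.81 for Ccl17 and -4.74 for Il4i1, which were higher with papain in WT and lower in KO; for Il4i1 the KO value rests on 20 and 6 UMIs, under the minimum of 50 over both libraries. It was 3.50 for Sirpb1c, 3.08 for Ccl4, 2.81 for Egr1, 2.71 for Tnf and 3.47 for Hmox1, which were lower with papain in WT and higher in KO; for Sirpb1c the KO value rests on 16 and 31 UMIs, also under that minimum.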

How the results depend on the processing

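No paired analysis was possible because each group holds 1 library. All 28 log2 ratios of cDC2 shares under alternatives stayed within the counting interval of the ratio reported, though the DPBS-WT share itself went below its interval with at least 3 rule genes (0.233%) and without cells with Ly6c2 (0.282%). Of 88 counts of genes past 2-fold, 67 stayed within 1.5 times. A minimum of 20 UMIs gave 371 higher and 280 lower genes for papain in WT, 240 and 128 for papain in KO, 208 and 396 for KO over WT after papain, and 160 and 328 after DPBS. A minimum of 100 UMIs gave 82 and 36, 12 and 4, 39 and 51, and 29 and 31, because fewer genes were tested. For lower genes with papain in KO, at least 3 rule genes gave 13, leaving out cells high in Lyz2 gave 14, and the mean over cells of CPM gave 36. For KO over WT after DPBS, TMM gave 95 higher genes, and at least 3 rule genes gave 44 lower ones. Leaving out the top cell of each gene gave 243 higher genes for papain in WT and 191 lower ones for KO over WT after papain. Of 800 values of named genes, 666 stayed, 124 moved and 10 turned: for papain in WT, Apoe was 2.28 without cells with Ly6c2, and Ly6c2 was 0.093 without cells high in Lyz2; for papain in KO, S100a9 was -5.33 and Cxcl2 -0.19 with the thinned selection, Clec4e 1.64 without cells with Ly6c2 and 1.48 without cells high in Lyz2, F13a1 0.26 without the latter, and Hist1h2ap 0.39 without doublet scores. For KO over WT after papain, Ccl5 was -1.67 with at least 3 rule genes and -0.65 without its top cell. The causes were not tested. Of 285 list medians, 22 moved. Between 29 and 76 cells per library limit what genes under 50 UMIs can show.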
